A study of Mus musculus with 6 samples.

Results

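Neurons with a big cell body were compared with neurons of medium to small diameter from mouse dorsal root ganglia, the clusters of sensory nerve cell bodies beside the spinal cord. The members were all 6 of 6 expression arrays of the series, each hybridised with total RNA of 1 pool of neurons. Size class was taken from the sample descriptions, and arrays were paired by the code in the sample title. The 3 big arrays were L3-B, L3-S and L6-R, and each had a medium to small array of the same code. Both L3-B pools held 50 control neurons. The other 4 pools, of L3-S and L6-R, each held 20 neurons labelled with DiI, a lipophilic dye that an axon carries back to its cell body. Each combination of code and size class was therefore 1 pool on 1 array. What the codes stand for, where the dye was placed, which diameters divided the classes, the strain and age of the mice and how many animals were used were not stated in the sources used here. The spread behind the p-values is how far the size difference varied between the 3 codes. No pool was repeated, so technical spread and real differences between codes cannot be told apart in it.

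Neurons of the dorsal root ganglia differ in size with the fibre they send out. Large cell bodies mostly belong to myelinated fibres for touch and for muscle and joint position, and they are known for heavy neurofilament, parvalbumin and the receptors TrkB and TrkC. Small cell bodies mostly belong to thin or unmyelinated fibres for pain, itch, temperature and gentle stroking, and they are known for substance P, TRP channels, the sodium channels of nociceptors or tyrosine hydroxylase. Medium cells hold a mixture of both.

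Values are signals of the deposited table, and differences are big minus medium to small on the scale log2(signal + 32), so that a difference of 1 is a doubling for a bright gene and more than a doubling for a dim one. Pairs of signals give the big array first and, where no code is named, run in the order L3-B, L3-S and L6-R. A level under 32 is near the background of such arrays. The number of arrays limits the precision. The 2% trimmed mean of the signals was 150 on each array, and 55.3% to 59.5% of probe sets read under 32. Genes that mark sensory neurons as a whole were bright on all 6 arrays. The signal was 5058 to 8397 for Avil, the sensory neuron actin-binding protein advillin, 1238 to 2292 for Isl1 and 975 to 1671 for Pou4f1, both transcription factors of sensory neurons. Arrays differed in the ratio of the 3' to the 5' control probe set of Actb, which is higher where transcripts are shortened at the 5' end. It was 13.9 on the big and 3.73 on the medium to small array of L3-B, 5.42 against 12 in L3-S, and 8.31 against 8.42 in L6-R. The ratio was thus higher in the big pool of L3-B, lower in the big pool of L3-S and close in both pools of L6-R. For Gapdh it was 8.76 against 3.68 in L3-B, 4.59 against 6.82 in L3-S, and 4.46 against 5.20 in L6-R.

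Both size classes held much the same transcripts. Of 9097 genes tested, 8470 (93.1%) lay within 1 log2 of each other in all 3 codes, 5078 (55.8%) within 0.5 log2 and 1419 (15.6%) within 0.25 log2. No gene passed an adjusted p of 0.05 in limma with the code as a block (0 of 9097, 0%). At an unadjusted p under 0.05 there were 94 genes higher in big (1.03%) and 226 lower (2.48%), 320 together. The median standard error (SE) of a gene's difference was 0.197 log2, the median 95% interval reached 0.45 log2 to either side, and the largest mean difference was 1.51 log2. A gene that failed the test was therefore not shown to be equal in both classes. Leaving out 1 code could bring a gene past the threshold. Without the L3-S pair, Cap1, an actin-binding protein, passed (-2.12 log2, adjusted p = 0.0287 in limma), and without the L6-R pair Rsad2 passed (-2.02 log2, adjusted p = 0.023).

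**Figure D1:**
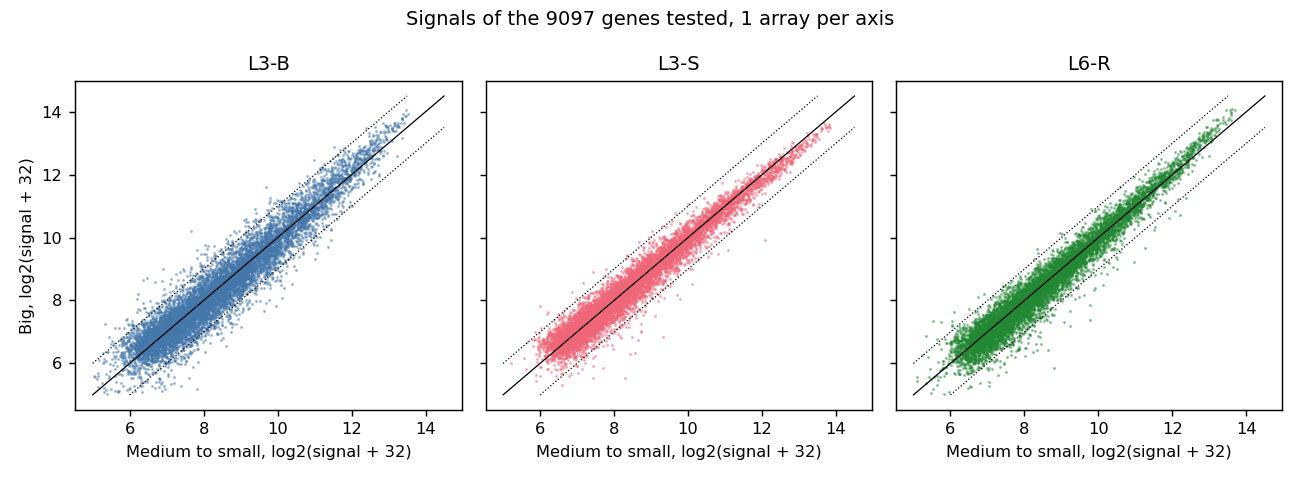
Signals of the 9097 genes tested on the big array (vertical axis) against the medium to small array (horizontal axis) of each code, both as log2(signal + 32), 1 point per gene. The solid line marks equal signals and the dotted lines a difference of 1 log2. The cloud is widest in L3-B, where the SD of the differences was 0.493, against 0.342 in L3-S and 0.365 in L6-R.

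The brightest genes that were alike, chosen as those under 0.25 log2 apart in all 3 codes, had varied roles. Snap25, the vesicle fusion protein, read 6328 in big and 7332 in medium to small neurons of L3-B, 6809 against 7209 in L3-S, and 5987 against 5834 in L6-R. Atp1b1, the beta subunit of the sodium pump, read 8690 and 7361, 7717 and 8690, and 7446 and 6293 in the same order. Prnp, the prion protein, read 7576 and 7093, 7681 and 7029, and 7791 and 6817. The size classes overlapped for Snap25 and Atp1b1, and all big arrays lay slightly above all medium to small arrays for Prnp (0.14 ± 0.18 log2). Ndfip1, Tppp3, Zwint, Ctsb, Atp5c1, Ttc3 and Reep1 completed the 10 brightest, with mean differences between -0.07 and 0.08 log2.

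Known markers of size did not separate the arrays by size class. Nefh, the heavy neurofilament subunit of myelinated neurons, had a signal of 12609 in big and 9055 in medium to small neurons of L3-B, 8744 against 10408 in L3-S, and 9581 against 7766 in L6-R. The groups overlapped, and big was higher in 2 of 3 codes (0.18 ± 0.21 log2, mean ± SE, 95% interval -0.30 to 0.65, adjusted p = 0.998 in limma). Pvalb, parvalbumin of proprioceptors, read 723 and 756, 2084 and 3413, and 69 and 32. Its level followed the code far more than the size class (size difference -0.04 ± 0.26 log2), and it turned to 0.30 log2 without the L3-S arrays. Nefm, the medium neurofilament, differed by -0.03 ± 0.20 log2.

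Receptors of large neurons did not pass the test, and their probe sets disagreed. Ntrk2, the BDNF receptor TrkB, read 433 in big and 191 in medium to small neurons of L3-B, 936 against 655 in L3-S, and 950 against 993 in L6-R (0.50 ± 0.24 log2, adjusted p = 0.998). The difference was 0.22 log2 without L3-B and 0.16 log2 with the mean of its probe sets. Its other probe sets of mean signal 64 or more included 1 of mean signal 379 that was higher in big in all 3 codes (1.35, 0.41 and 0.17 log2) and 1 of mean signal 223 that was not (-0.05, 0.16 and -0.73 log2). Ntrk3, the NT-3 receptor TrkC of proprioceptors, read 2243 and 2087, 1155 and 791, and 505 and 448, higher in big in all 3 codes (0.26 ± 0.19 log2). Its medium to small signal in L3-B still exceeded the big signals of L3-S and L6-R, and a probe set of mean signal 1011 gave -0.03, 1.22 and 1.41 log2.

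Several genes of small-diameter neurons were level or higher in the big pools, others were lower, and none of those measured passed the test in either direction. Tac1, the precursor of substance P, read 167 in big and 75 in medium to small neurons of L3-B, 1758 against 1429 in L3-S, and 5435 against 4090 in L6-R. It was higher in big in all 3 codes (0.53 ± 0.20 log2, adjusted p = 0.998 in limma), while the codes themselves lay much further apart. Trpv1, the capsaicin receptor, was under 32 in both L3-B pools (19 and 20) and higher in big in L3-S (108 and 56) and L6-R (616 and 392). The sodium channel gene Scn10a read 121 and 83, 105 and 236, and 490 and 287, and its direction differed between codes (0.05 ± 0.31 log2). Scn11a, the companion channel of nociceptors, was higher in big in each code by 0.15 to 0.28 log2 (0.22 ± 0.18). P2rx3, the ATP receptor of non-peptidergic nociceptors, was nearly level (2315 and 2321, 2473 and 2392, 3247 and 2772). Ret, the GDNF family co-receptor, differed by 0.26 ± 0.20 log2, and Prph, the filament peripherin of small neurons, by 0.03 ± 0.21 log2. Tmem45b, of the list of nociceptor channels and receptors, was lower in big on average (-0.85 ± 0.30 log2). It read 38 and 37, 95 and 390, and 304 and 580. Kit, of the peptidergic nociceptor list, differed by -0.60, -0.53 and 0.03 log2. In pools of this kind, fewer cells of a type and less RNA per cell cannot be told apart.

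**Figure D2:**
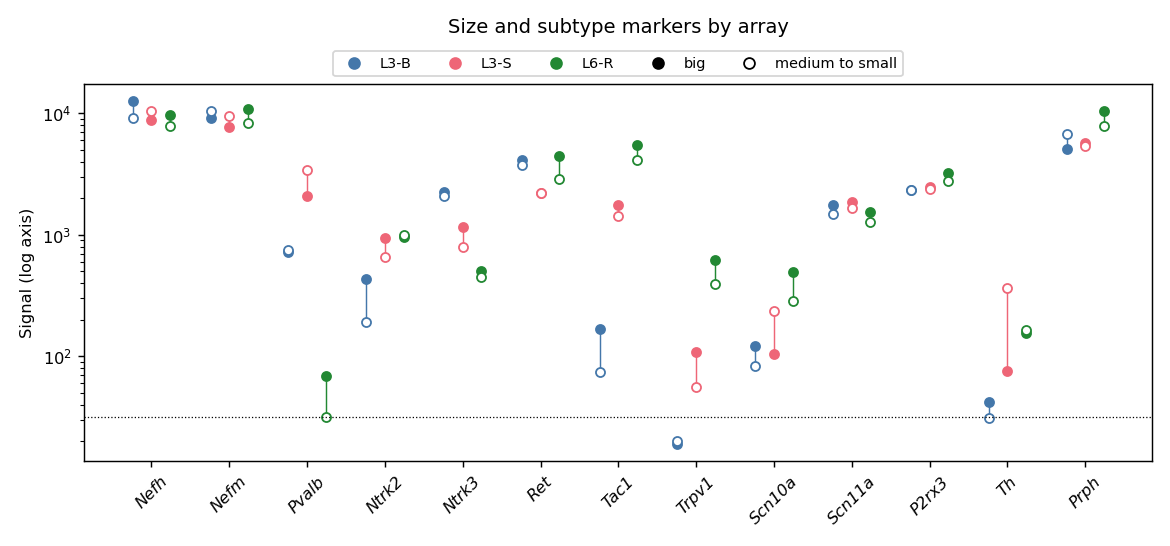
Signal (log axis) of 13 size and subtype markers on each of the 6 arrays, with filled circles for big and open circles for medium to small pools of a code joined by a line. The dotted line marks a signal of 32. For Pvalb, Tac1 and Trpv1 the distance between codes exceeds that between size classes, and Nefh, Nefm and Prph change order between codes.

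Marker lists gave the same picture. Of 24 tested markers of large myelinated-fibre neurons, 14 were higher in big (58.3%, against 46.8% of all genes), with a median of 0.12 log2. In all 3 codes, 5 were higher (20.8%) and 3 lower (12.5%). Over all genes tested, 848 (9.32%) were higher in big in all 3 codes and 1147 (12.6%) lower, with a median of -0.02 log2. The 5 were Ntrk3, Calb1, which encodes calbindin, and 3 that also had the smallest unadjusted p of the list: Pcp4l1 (0.59 ± 0.21 log2), Baiap2l1 (0.52 ± 0.20) and Cntnap2 (0.50 ± 0.19), the axonal adhesion protein Caspr2 that gathers potassium channels beside the node. The 3 lower in all 3 codes were Vamp1 (-0.44, -0.17 and -0.17 log2), Scn4b (-0.40, -0.11 and -0.41 log2) and Esrrg (-0.28, -0.47 and -0.03 log2). Cntnap2 read 4402 against 2514 in L3-B, 2769 against 2032 in L3-S, and 2401 against 2023 in L6-R. Its lowest big signal lay below the highest medium to small signal, so the classes overlapped. A second probe set of Cntnap2, of mean signal 2075 against 2690, gave -0.29, -0.38 and 0.13 log2, and one of Baiap2l1, of mean signal 285, gave -0.04, 0.84 and -0.19 log2. The median of the list was 0.01 log2 with the mean of each gene's probe sets and 0.03 log2 without L3-B or with quantile normalization. Kcna2, a potassium channel of myelinated axons, was the most alike of the list (3660 and 3915, 3050 and 3583, 2251 and 2202), while another of its probe sets gave 0.50, 0.23 and 0.14 log2.

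Of 12 tested markers of peptidergic nociceptors, 8 were higher in big (66.7%, against 46.8% of all genes; median 0.08 log2), 4 of them in all 3 codes: Trpa1, Gfra3, Tac1 and Gal. Gfra3, the artemin receptor, read 35 and 26, 138 and 60, and 476 and 311 (0.55 ± 0.20 log2). Gal, the precursor of galanin, was dim in L3-B and L3-S (46 or lower) and read 216 in big and 158 in medium to small neurons of L6-R. Calcb, which encodes a calcitonin gene-related peptide, was higher in big in L3-B (3922 and 1755) and lower in L3-S (2291 and 3266) and L6-R (2424 and 2974). Of 9 non-peptidergic and itch neuron markers, 5 were higher in big (median 0.09 log2, and -0.15 log2 without L6-R), and in L6-R all 9 were higher, against 48% of all genes there. The difference in L6-R reached 1.32 log2 for Osmr, the oncostatin M receptor of itch neurons, at 767 and 289, whereas in L3-B its signals were 13 and 57. The median of 12 nociceptor channels and receptors was 0.08 log2, and that of 21 Kv potassium channel subunits was -0.11 log2, with 4 higher in big (19%, against 46.8% of all genes), but 0.02 log2 with the mean of each gene's probe sets.

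Few differences recurred in all 3 codes. None of the 9097 genes was at least 1 log2 higher in big in every code (0%), and none was at least 1 log2 lower (0%). At 0.5 log2 there were 3 higher (0.033%) and 17 lower (0.187%). The sign was the same in all 3 codes for 1995 genes (21.9%). The differences of separate codes had little in common across the 9097 genes, which are not independent replicates. Pearson's r was -0.214 between L3-B and L3-S, with 40.2% of genes of the same sign, 0.0685 between L3-B and L6-R (54.3%) and 0.0108 between L3-S and L6-R (49.4%). The opposite lean of L3-B and L3-S ran with the opposite lean of their Actb ratios given above, whose part in it was not tested.

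**Figure D3:**
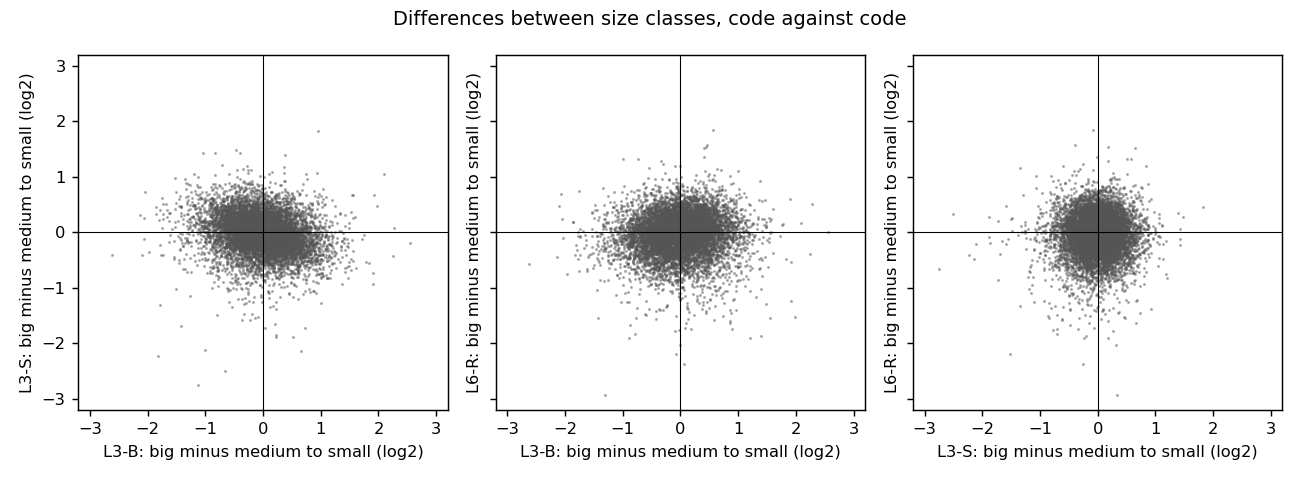
Big minus medium to small difference (log2) of each of the 9097 genes in 1 code against the same difference in another code, for the 3 pairs of codes. Points at the lower left and upper right of the crossing lines have the same sign in both codes. The clouds show no common diagonal, and that of L3-B against L3-S leans the other way (r = -0.214).

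The genes named here as recurring are the 10 in each direction whose smallest difference over the codes was the largest. They were chosen by these differences, which are given as a description. Dgkh, a diacylglycerol kinase, read 1589 in big and 983 in medium to small neurons of L3-B, 1957 against 1148 in L3-S, and 5757 against 3270 in L6-R (0.68, 0.75 and 0.81 log2). All 3 steps were alike in size, although the highest medium to small signal exceeded the lowest big signal. Its other bright probe sets, of mean signal 323 and 213, did not keep that direction in every code. Ulk3, a kinase of the autophagy and hedgehog pathways, was dim at 75 and 21, 92 and 46, and 73 and 36, and every big array lay above every medium to small array. Atr, the DNA damage checkpoint kinase, read 476 and 321, 336 and 204, and 209 and 119 (0.53 to 0.67 log2).

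Trpa1, the irritant channel of nociceptors, was also among the genes higher in big in each code. Its signals were 15 against 2 in L3-B, 56 against 30 in L3-S, and 600 against 274 in L6-R (0.49, 0.50 and 1.05 log2). It was detected well above 32 in L6-R alone, in both size classes. Prokr1, a prokineticin receptor, read 825 and 608, 337 and 217, and 235 in the big pool of L6-R, and was brightest in L3-B, where Trpa1 was dimmest. Tpd52l1 had the widest spread between codes (0.95, 1.82 and 0.45 log2). Mcm4, a subunit of the replication helicase, and Zfp1, Ctxn1 and Specc1l differed by 0.41 to 0.72 log2 in each code. The other bright probe set of Mcm4 was higher in big in all 3 codes as well, by 0.16 to 0.42 log2.

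Genes lower in the big pools showed larger steps. Fastk, a kinase of the family that acts on mitochondrial RNA, read 83 in big and 164 in medium to small neurons of L3-B, 139 against 274 in L3-S, and 42 against 184 in L6-R (-0.77, -0.84 and -1.55 log2). The 3 medium to small arrays lay above the 3 big arrays. Dipk1b, a gene of the divergent protein kinase family, read 370 and 623, 336 and 557, and 304 and 649, again without overlap (-0.80 log2 on average). Ide, the insulin-degrading enzyme, read 1041 and 1988, 1028 and 1735, and 800 and 1205, also without overlap. Its second bright probe set, of mean signal 1093, differed by -1.31, -0.71 and -0.32 log2, and a dimmer one of mean signal 134 was not lower in every code.

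The remaining genes of this direction had varied roles. Dohh, the enzyme that completes hypusine on a translation factor, read 234 and 366, 227 and 352, and 230 and 390, without overlap. Fads2, a fatty acid desaturase, read 34 and 69, 79 and 155, and 150 and 246. Pcdhb9, a clustered protocadherin of neuronal adhesion, read 157 and 311, 216 and 345, and 146 and 322, without overlap. Lyz1, a lysozyme gene, read 3 and 29, 79 and 149, and 66 and 319, from a probe set of a type that can also match related genes. The unnamed transcript 9530059O14Rik differed by -0.59, -0.71 and -1.50 log2. The other 2 genes, Iigp1 and Psmb10, belong to the interferon response. Of the 20 recurring genes, 3 had other bright probe sets, and in 1 of these 3 every such probe set kept the direction in all codes.

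**Figure D4:**
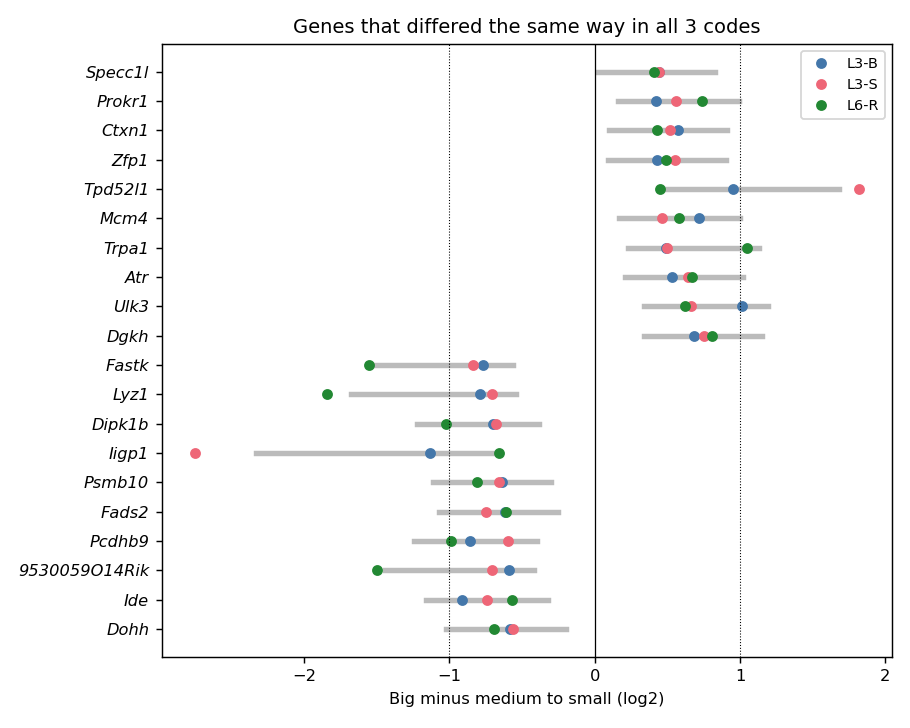
Big minus medium to small difference (log2) of the 20 recurring genes, 1 point per code, with grey bars for the 95% interval of the limma fit. Dotted lines mark 1 log2. Each gene lies on 1 side of 0 in all 3 codes because it was chosen that way, and Iigp1, at -2.75 in L3-S, is the farthest from 0.

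Iigp1, a GTPase of cell-autonomous immunity, and Psmb10, a subunit of the immunoproteasome, led to a list of 48 interferon-induced genes that was drawn up after these values were seen. Of the 44 measured, 19 were bright enough to be tested, and none passed an adjusted p of 0.05 in limma. At an unadjusted p under 0.05, 6 of the 19 were lower in big, beside 226 of all 9097 genes (2.48%). The filter used the mean over all 6 arrays, so a member dim in big could pass it through its medium to small arrays. Iigp1 (28, 15 and 28 in big, 99, 283 and 62 in medium to small) was such a case. Members like it can tilt the median and the counts of this list toward lower in big. The median difference was -0.37 log2 (-0.31 in L3-B, -0.65 in L3-S and -0.22 in L6-R), beside -0.02 log2 over all genes. Lower in big in all 3 codes were 10 of the 19 (52.6%, against 12.6% of all genes), and none was higher in all 3. Because its first members were picked for this direction, the list is not independent of it. Without L3-B, 13 were lower in both remaining codes (26.7% of all genes were), without L3-S 12 (29.2%) and without L6-R 13 (22.1%). These counts reuse the values that led to the list, so they cannot check its direction.

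The members with the smallest unadjusted p included antiviral genes. Rsad2, which encodes viperin, read 27 in big and 177 in medium to small neurons of L3-B, 49 against 347 in L3-S, and 110 against 156 in L6-R (-1.48 ± 0.32 log2, adjusted p = 0.998 in limma). All big arrays lay below all medium to small arrays. Oasl2, an oligoadenylate synthetase-like protein, read 111 and 352, 99 and 389, and 249 and 338 (-1.17 ± 0.26 log2), and its classes did not overlap. In L6-R both of these genes differed by only 0.40 log2. Iigp1 read 28 and 99, 15 and 283, and 28 and 62 (-1.51 ± 0.36 log2). Psmb10 read 193 and 319, 202 and 338, and 110 and 216 (-0.70 ± 0.18 log2).

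Several other members were also lower in big. Ifit1, an RNA-binding antiviral protein, read 3 and 39, 47 and 311, and 90 and 110 (-1.12 ± 0.32 log2). Igtp, a GTPase related to Iigp1, read 186 and 566, 335 and 485, and 325 and 406 (-0.75 ± 0.25 log2), without overlap. B2m, the light chain of class I antigen-presenting molecules, differed by -0.28, -0.28 and -0.20 log2, and Ifi27 by -0.31, -0.24 and -0.27 log2. Trim25 was the most alike (-0.06 ± 0.18 log2), and Xaf1 and Lgals3bp were the 2 with a mean above 0. The summed signal of 18 blood and immune cell markers was 316 in big and 240 in medium to small neurons of L3-B, 374 against 311 in L3-S, and 471 against 1286 in L6-R. On each array 10 to 17 of the 18 were under 32, so these sums lie mostly near the background. The part of such cells in the interferon differences was not tested.

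Genes of this response commonly carry in their promoters the element bound by interferon-activated factors, for which GAAANNGAAA is a common form. The 10 letters were searched on both strands from 250 bases before to 50 after each RefSeq gene start (GRCm38.p6), counting overlapping matches as 1 gene. They stood in 243 of 7437 tested genes with a promoter in the table (3.27%) and in 7 of 16 tested interferon-induced genes (43.8%). Among recurring genes with a promoter in the table, they stood in 0 of 8 lower in big and in 0 of 8 higher in big. Iigp1 and Pcdhb9 had no promoter there and were not searched. Oasl2 and Psmb10 had no match in this window. Printed here, to show how near to the start the motif lies, are the promoters of the 3 genes with the largest differences among those that held it and were lower in big in all 3 codes. Each is the 250 bases before the start, 5' to 3' on the gene's strand, with the motif or its reverse complement in capitals: Rsad2 at chr12:26456453-26456702 on the minus strand, Ifit1 at chr19:34640639-34640888 on the plus strand and Igtp at chr11:58199306-58199555 on the plus strand.
Rsad2: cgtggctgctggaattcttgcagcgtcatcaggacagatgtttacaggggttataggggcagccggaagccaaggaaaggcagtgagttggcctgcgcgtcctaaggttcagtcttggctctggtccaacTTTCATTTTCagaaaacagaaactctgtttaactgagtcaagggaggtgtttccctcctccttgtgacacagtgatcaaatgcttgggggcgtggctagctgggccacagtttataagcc
Ifit1: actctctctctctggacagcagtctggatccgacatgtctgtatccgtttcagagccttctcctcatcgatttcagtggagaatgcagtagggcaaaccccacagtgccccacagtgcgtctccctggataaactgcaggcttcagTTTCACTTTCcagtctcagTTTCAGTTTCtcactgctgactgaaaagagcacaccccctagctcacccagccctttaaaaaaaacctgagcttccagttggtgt
Igtp: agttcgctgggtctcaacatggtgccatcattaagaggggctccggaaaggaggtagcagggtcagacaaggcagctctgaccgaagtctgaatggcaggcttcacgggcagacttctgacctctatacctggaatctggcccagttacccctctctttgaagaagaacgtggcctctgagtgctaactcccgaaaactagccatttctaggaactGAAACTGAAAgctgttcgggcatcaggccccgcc

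The motif began 120 bases before the start in Rsad2 and 34 bases before it in Igtp. In Ifit1 there were 2 copies, at 104 and 85 bases before the start. A match describes letters in the window and not a bound site.

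Differences present in 1 code only, at 1.5 log2 or more there and under 0.5 log2 in both others, numbered 47. In L3-B there were 9 higher in big (0.0989%) and 23 lower (0.253%). In L3-S there were 0 higher (0%) and 6 lower (0.066%), and in L6-R 2 higher (0.022%) and 7 lower (0.0769%). Each rests on 1 pair of arrays, without a replicate of that pair, and was chosen by that difference. Named here are up to 4 genes per code and direction with the largest difference and a signal of at least 4 times 32 on at least 1 of the 6 arrays, or those available where there were fewer. Single-code steps of at least 1 log2, whatever the other codes did, were also more frequent in L3-B, with 180 higher (1.98%) and 248 lower (2.73%), than in L3-S, with 24 higher (0.264%) and 70 lower (0.769%), or L6-R, with 23 higher (0.253%) and 114 lower (1.25%).

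In L3-B, Cyp1b1, a cytochrome P450 of steroid and xenobiotic metabolism, read 1155 in big and 171 in medium to small neurons, while the other 4 arrays lay between 567 and 1073. The medium to small array of L3-B was thus the one that stood apart. A second bright probe set of Cyp1b1, of mean signal 67.9, showed 1.30 log2 in L3-B and -0.30 and -0.02 in the other codes. Mxra7 (837 and 231) and Cherp (365 and 86) were likewise low on the medium to small array of L3-B, but other probe sets of Mxra7 (mean signal 116) and Cherp (mean signal 138) differed there by 0.02 and 0.15 log2. Wdfy1 (384 and 56) was high on the big one, with 57 to 87 elsewhere. Among genes lower in big in L3-B, Rabggtb, a subunit of the enzyme that attaches lipid to Rab proteins, read 237 and 1090, with 487 to 661 on the other arrays. Abtb1 read 110 and 483, and the lipid transporter gene Abca2 read 7 and 135. For Ifngr2, a chain of the interferon gamma receptor (195 and 967), the other bright probe set went the opposite way in L3-B, at 0.73 log2.

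L3-B also differed in whole groups of abundant transcripts. Of 38 cytosolic ribosomal protein genes, 33 were higher in big in L3-B (median 0.61 log2, against 47.9% of all genes higher there), 12 in L3-S (median -0.08 log2; 48% of all genes) and 23 in L6-R (0.08 log2). Rpl37a, a protein of the large subunit, read 2181 against 840 in L3-B, 1338 against 1586 in L3-S, and 2294 against 1896 in L6-R. Of 72 subunits of oxidative phosphorylation, 61 were higher in big in L3-B (median 0.49 log2), whereas 58 were lower in L3-S (median -0.20 log2) and 39 lower in L6-R (median -0.01 log2). Of all 9097 genes, 4358 were higher in L3-B, 4729 lower in L3-S and 4726 lower in L6-R. Cox6a1, a subunit of cytochrome c oxidase, read 11638 and 6307, 8502 and 10339, and 11600 and 7712. In L3-B the big array had the higher Actb ratio and in L3-S the lower one, and the part of this in the group shifts was not tested. The medium to small array of L3-B correlated more closely with the big array of L3-S (r = 0.9635 across genes) than with its own partner (r = 0.956).

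In L3-S, genes of low-threshold C-fibre neurons, the small neurons that sense gentle stroking, were lower in the big pool. Th, tyrosine hydroxylase, which marks these cells, read 76 in big and 368 in medium to small neurons of L3-S, 42 against 31 in L3-B, and 155 against 165 in L6-R (-0.58 ± 0.37 log2, adjusted p = 0.998 in limma). Of the 10 measured members of that list 5 were tested, and all 5 were lower in big in L3-S, against 4729 of all 9097 genes. Their median there was -0.91 log2, against 0 in L3-B and 0.02 in L6-R. Tafa4, a secreted protein of the same cells, read 119 against 390 in L3-S, and Zfp521, a zinc finger factor, 412 and 799. Of the non-peptidergic and itch list, Gfra2, the neurturin receptor, read 233 against 844 in L3-S and Runx1, a transcription factor of nociceptors, 112 and 247. That list as a whole did not share this direction. In L3-S, 6 of its 9 tested members were higher in big (median 0.05 log2), against 48% of all genes. In L3-B and L6-R the differences of Gfra2 were 0.73 and 0.21 log2. The difference between codes was not tested, since each code had 1 array per size class.

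Other genes low in the big pool of L3-S alone had different roles. Ina, the filament alpha-internexin, read 336 against 1074 in L3-S and was at 78 or below on the other 4 arrays, and its 2 other bright probe sets also differed most in L3-S (-1.02 and -1.18 log2 there). Ifit2, an interferon-induced gene of the list above, read 82 and 327. Gga1, an adaptor of Golgi vesicle transport, read 25 and 176.

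In L6-R, the inducible Hsp70 genes, some immediate early genes and most glial markers were lower in the big pool. Hspa1a, which encodes an inducible Hsp70, read 136 in big and 835 in medium to small neurons of L6-R, while the other 4 arrays lay between 221 and 269. Hspa1b, its near-identical neighbour whose probe set may share transcripts with it, read 784 and 2415. Fos, an immediate early gene, read 2387 and 4511, and Egr1, another, 571 and 1193, whereas in L3-B Egr1 read 500 and 169. Of 12 immediate early and heat shock genes, 8 were lower in big in L6-R (median -0.51 log2) and 10 higher in L3-B (median 0.37 log2). Of all 9097 genes, 4726 were lower in big in L6-R and 4358 higher in L3-B. The abundant chaperone genes Hspa8 and Hsp90aa1 went the other way in L6-R, at 0.61 and 0.56 log2.

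Of 15 tested markers of satellite glia and Schwann cells, the cells that wrap sensory neurons and their axons, 12 were lower in big in L6-R (median -0.92 log2), 9 in L3-S (-0.16 log2) and 2 in L3-B (0.32 log2). Of all 9097 genes, 4726 were lower in big in L6-R, 4729 in L3-S and 4739 in L3-B. Mbp, myelin basic protein, read 1179 against 2857 in L6-R, 480 against 1073 in L3-S, and 468 against 332 in L3-B. Fabp7, a fatty acid-binding protein of satellite glia, read 499 and 1308, 675 and 1766, and 272 and 250 in the same order. Apoe, the lipid carrier, was the member lower in big in all 3 codes (540 against 913 in L3-B, 2764 against 3745 in L3-S, 2394 against 5224 in L6-R, -0.76 ± 0.20 log2, adjusted p = 0.998). Gfra3, which is on this list and on that of peptidergic nociceptors, was the member higher in all 3.

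The summed signal of the 19 measured glial markers was 14073 in big and 12511 in medium to small neurons of L3-B, 15253 against 18855 in L3-S, and 17734 against 24303 in L6-R. S100b, the most alike of those tested, gave a large part of each sum (6832 and 5546, 5149 and 5753, and 5114 and 4918). The summed signal of 16 connective tissue and vessel markers was 609 and 415, 1558 and 1659, and 1270 and 2208, with 5 to 12 of them under 32. Sums of glial, connective and immune markers were thus all higher in the medium to small pool of L6-R, the pool in which Hspa1a, Fos and Egr1 were also high. Their part in those differences was not tested. Mxra8 (21 and 149), Sh3d19 (115 and 565) and Agrn (58 and 232), which encodes the basement membrane protein agrin, were lower in the big pool of L6-R alone. Dusp5, a phosphatase of MAP kinases, was the opposite case there (84 and 8).

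**Figure D5:**
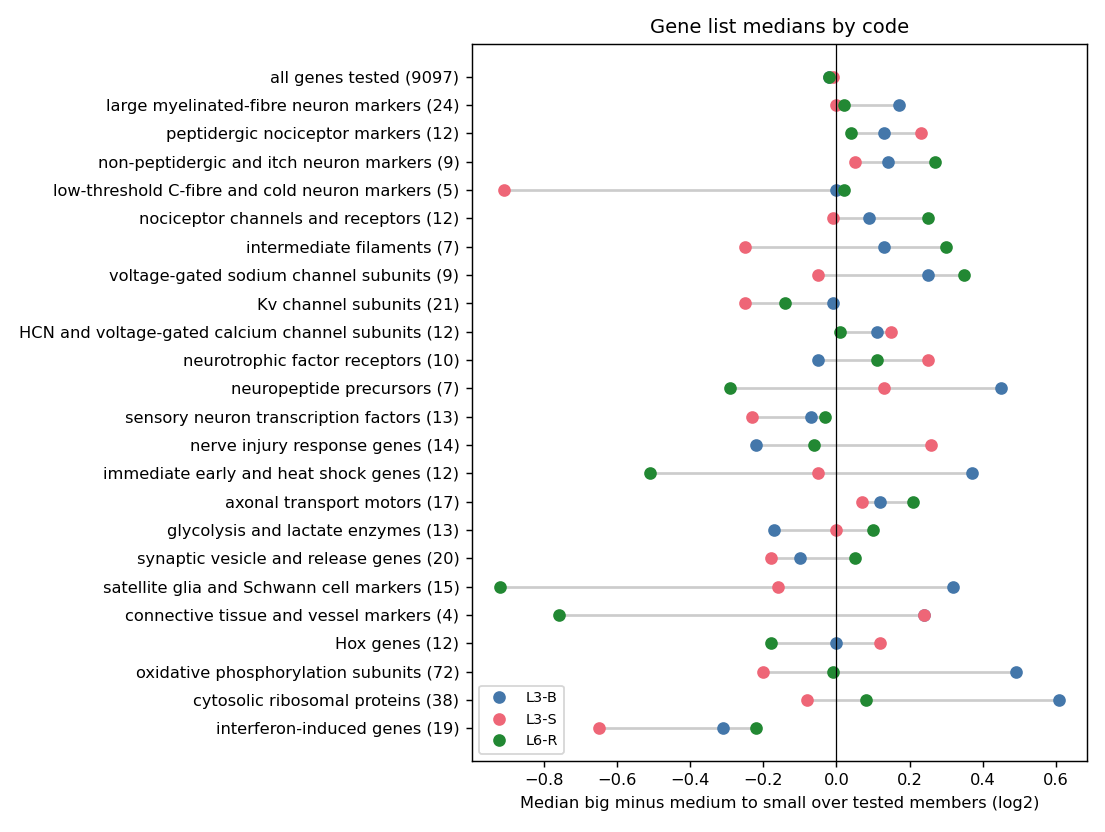
Median big minus medium to small difference (log2) over the tested members of each gene list, 1 point per code, with the number of members in brackets. All genes lie at -0.02 to -0.01 in each code. Glial markers (-0.92 in L6-R), C-fibre markers (-0.91 in L3-S) and ribosomal proteins (0.61 in L3-B) stand out in 1 code each, and interferon-induced genes lie below 0 in all 3.

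Code accounted for far more of the variation than size class. Of the sum of squares over the 9097 genes, 68.2% lay between codes, 9.74% between size classes and 22.1% was residual. The mean square per gene was 0.265 for code, 0.0757 for size and 0.0858 for the residual, so the ratio to the residual was 3.09 for code and 0.882 for size. Averaged over genes, the size classes thus lay no further apart than the codes disagreed about them. Code is tied to the number of neurons per pool and to dye labelling between L3-B and the others, and these cannot be told apart.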

How the data were processed

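The authors' deposited table holds linear signal intensity for 45037 probe sets and 64 control probe sets on each of 6 arrays. How probe sets were summarised and scaled is not stated in the sources used here. Equal trimmed means showed that the arrays were already scaled. No further normalization was applied. Of the probe sets, 34945 carried 1 gene symbol, 932 several and 9160 none. The brightest probe set stood for each of 18193 genes, and the upper 50% by mean log2(signal + 32), 9097 genes, were tested. R 4.3.3 with limma 3.58.1 fitted code and size class to all 6 arrays (2 residual degrees of freedom, 6.46 prior, eBayes, two-sided), with Benjamini-Hochberg adjustment at 0.05. The code in the title pairs the arrays, and deviations from the group means correlated within each code (0.431, 0.288 and 0.70). The model was checked on simulated data.

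The members and the 23 gene lists were chosen with earlier results of these data known, and the interferon list was added after the values were seen. Named genes were the 10 per direction with the largest smallest difference over codes, up to 4 per code and direction present in 1 code only, the 10 brightest alike, per list up to 4 by smallest p and the most alike, and fixed size markers. Other genes named (Avil, Isl1, Pou4f1, Calb1, Calcb, Gfra2, Runx1, Fos, Egr1, Hspa8, Ifit1, Igtp, B2m, Ifi27, Xaf1, Lgals3bp, and those that passed only under an alternative) were chosen after their values were seen. Some list members are not reported here. Promoters came from a RefSeq table of GRCm38.p6. Alternatives were quantile normalization, other pseudocounts, filters and thresholds, the mean of probe sets, eBayes with trend or robust, array weights, no block, an Actb ratio covariate and leaving out arrays.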

Additional observations from a re-analysis of the deposited data

Results flagged for a closer look

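The medians of 4 gene lists were at least 0.25 log2 above 0 in 1 code and at least 0.25 log2 below 0 in another. The gap between the highest and the lowest code median was 1.24 log2 for satellite glia and Schwann cell markers (0.32 in L3-B, -0.92 in L6-R), 0.88 log2 for immediate early and heat shock genes (0.37 in L3-B, -0.51 in L6-R), 0.74 log2 for neuropeptide precursors (0.45 in L3-B, -0.29 in L6-R) and 0.55 log2 for intermediate filaments (0.30 in L6-R, -0.25 in L3-S). The differences between codes were not tested, since each code had 1 array per size class.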

How the results depend on the processing

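The count of 0 genes past the threshold held under quantile normalization, pseudocounts of 1 and of 4 times 32, no filter, an upper 25% filter, the mean of probe sets, eBayes with trend or robust and array weights (smallest adjusted p 0.483, with array weights). Without the replicate block it was also 0 (smallest adjusted p 1). With the Actb ratio as a covariate it was 2 (Chodl and Iigp1, both lower in big). Leaving out arrays gave 0 to 1 genes: Cap1 without L3-S, Rsad2 without L6-R and none without L3-B. Leaving out either array of a code gives the same fit as leaving out both. The count higher in big by 1 log2 in every remaining code was 0 to 1 (Anxa4 without L6-R), and the count lower was 5 to 7. With 3 codes, 1 gene was lower at pseudocount 1 (Iigp1) and 1 higher with no filter (Ccdc167). A limit of 0.5 log2 gave 3 higher and 17 lower. Genes present in 1 code only numbered 114 at pseudocount 1, 11 at a pseudocount of 4 times 32 and 19 with under 0.25 log2 in the others. Genes alike under 0.5 log2 numbered 4178 at pseudocount 1 and 6985 at a pseudocount of 4 times 32, against 5078. Those alike under 0.25 log2 numbered 1419.

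Changes of sign by more than 1 SE came from leaving out 1 code: Pvalb ranged from -0.38 to 0.30 log2, Th from -0.98 to 0.07 and Scn10a from -0.28 to 0.57. Of 362 values of 33 named genes under 11 settings, 356 showed no such change and none passed the threshold. The 20 recurring genes were chosen for 1 sign in all codes, so leaving out a code or the block could not turn it. They also kept it under quantile normalization, other pseudocounts (19 genes tested at 1) and the mean of probe sets. Of 161 list medians, 13 moved, among them the large myelinated-fibre and Kv lists with the mean of probe sets. The interferon median ranged from -0.45 to -0.29 log2. Signals under 32 limit the comparison of dim genes.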

Other observations

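Some genes were lower in the big pools of both dye-labelled codes by more than in L3-B. Chodl, a membrane protein with a lectin domain, read 28 in big and 142 in medium to small neurons of L3-S and 55 against 365 in L6-R, and was near 0 in both L3-B pools (5 and 7). Tceal9 read 639 against 1469 in L3-S, 419 against 930 in L6-R, and differed by -0.03 log2 in L3-B. Grik1, a kainate receptor subunit, read 169 and 429, 306 and 660, and 161 and 230 in the same order. These genes, with Fabp7 and Mbp, are the 5 that were lower in big by at least 1 log2 in both L3-S and L6-R. They were chosen by these differences, and the difference from L3-B was not tested.

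Among the 14 tested nerve injury response genes, 6 were higher in big (42.9%, against 46.8% of all genes) and 8 lower, with a median of -0.13 log2. Sprr1a, a small proline-rich protein, was higher in big in all 3 codes (20 against 3 in L3-B, both under 32, 64 against 45 in L3-S, 294 against 136 in L6-R). Stmn4 was lower in big in all 3 codes (-1.07, -0.28 and -0.13 log2), and Gadd45a differed by -0.95, 0.03 and -0.70 log2. Atf3, the transcription factor of injured sensory neurons, read 121 against 43 in L3-B, 110 against 66 in L3-S, and 680 against 674 in L6-R. Its level was thus highest in both size classes of L6-R, where the classes were level.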
